A study of Mus musculus with 6 samples.

Results

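A set of 10 receptor genes of itch and of the Mas-related G protein-coupled receptor (Mrgpr) family were examined in cultured cells of mouse dorsal root ganglia. They were Mrgprd, Mrgpra3, Mrgprb4, Mrgprb5, Mrgpre, Mrgprf, Hrh1, F2rl1, Il31ra and Htr1f, chosen by gene symbol, and all 10 had a row among the 45703 genes of the count table. RNA sequencing had been done on 6 biological replicate cultures, which formed a single group. The cells came from wild-type C57BL/6 mice 4 to 6 weeks old, had been digested with Liberase and grown on poly-L-lysine, with the growth factors EGF and FGF (10 ng/ml of either) added to a medium containing 10% serum. Harvest was on day 7, and each sample pooled 2 dishes. No second condition and no uncultured ganglion was among the samples, so the comparisons are between cultures and between genes. The labels do not say whether each culture came from separate animals, and p-values therefore measure the spread between these samples, which may in part be technical.

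Sensory neurons of these ganglia detect itch through several classes of receptor. Mrgpr receptors respond to small molecules and peptides, and in mice several of them mark separate classes of unmyelinated skin afferents. Histamine, proteases, serotonin and the cytokine interleukin-31 act through receptors of other families. Many itch receptors signal through Gq and phospholipase C to TRP channels, and the interleukin-31 receptor signals through Janus kinases and STAT factors.

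The libraries held 20070639 to 22968642 counts, so that 3 counts, taken here as the limit of detection, corresponded to 0.131 to 0.149 CPM (counts per 1000000 counts of the library). All 12 pan-neuronal genes of a reference list, among them Prph and Stmn2, were at 1 CPM or more in every library, as were all 8 glial lineage genes. The summed level of the neuronal list lay between 1109 and 2433 CPM and that of a list of 7 fibroblast genes between 3339 and 13977 CPM. Of 8 mast cell genes, 5 never exceeded 3 counts, Fcer1a, Mcpt4, Cpa3, Tpsb2 and Ms4a2, and the summed mast cell level of 5.60 to 15.3 CPM was mostly Kit. Of 6 keratinocyte genes, Krt5, Krt14 and Lor never exceeded 3 counts, and Krt10 alone was at 1 CPM or more in every library. Replicate 5 had the lowest pan-neuronal and the highest fibroblast level by the scores defined further on.

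Some Mrgpr genes are close copies of each other, which bears on how their reads can be assigned. Of all 50-base windows of the Mrgpra3 coding sequence, 9.49% were also present without a mismatch in transcripts of 4 other genes of the GENCODE M21 annotation. The share of windows was 1.86% for Mrgprb4, 0.872% for Mrgprb5 and 0% for Mrgprd, Mrgpre, Mrgprf, Hrh1, F2rl1, Il31ra and Htr1f. The longest run shared by a member was 76 bases, between Mrgpra3 and Mrgpra4. It is printed here because a read lying wholly within it would match both Mrgpra3 and Mrgpra4. The stretches that align to it in other receptors of the family, which are not identical to it, follow for comparison. All are coding sequence on GRCm38, written 5′ to 3′ on the gene's strand. Capitals mark bases identical to Mrgpra3 in a pairwise alignment.
Mrgpra3 (chr7:47589886-47589961, minus strand): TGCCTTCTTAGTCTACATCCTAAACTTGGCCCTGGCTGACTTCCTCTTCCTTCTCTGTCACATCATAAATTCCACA
Mrgprb5 (chr7:48168725-48168800, minus strand): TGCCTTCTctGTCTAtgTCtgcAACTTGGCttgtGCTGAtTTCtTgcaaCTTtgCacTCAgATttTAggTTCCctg
Mrgprd (chr7:145321570-145321654, plus strand): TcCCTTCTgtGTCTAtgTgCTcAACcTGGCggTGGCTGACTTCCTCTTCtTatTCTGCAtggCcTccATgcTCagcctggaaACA
Mrgpre (chr7:143781529-143781609, minus strand): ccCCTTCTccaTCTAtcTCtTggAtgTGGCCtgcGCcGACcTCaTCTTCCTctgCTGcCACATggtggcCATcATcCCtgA
Mrgprf (chr7:145307930-145308012, plus strand): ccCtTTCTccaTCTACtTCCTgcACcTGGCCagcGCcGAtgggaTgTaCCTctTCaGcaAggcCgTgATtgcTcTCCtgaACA
Of the 76 bases, 47 were identical in Mrgprb5, 55 in Mrgprd, 49 in Mrgpre and 45 in Mrgprf. Across whole coding sequences, Mrgpre and Mrgprf were 54.4% identical, Mrgprd and Mrgprf 54.2%, Mrgpra3 and Mrgprb5 59.6%, and Mrgprb4 and Mrgprb5 84.5%. The counts of Mrgprf, Mrgpre and Mrgprd were whole numbers in all 6 libraries. Mrgpra3 had a fractional count in 1 library, and how reads matching more than 1 gene were assigned is not given in the sources used here, so its level is uncertain. F2rl1 and Il31ra, which shared no 50-base window of coding sequence, also had a fractional count in 1 library each.

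The family was dominated by its orphan receptors Mrgprf and Mrgpre, whose ligands are not established. Mrgprf (chromosome 7, 145300909 to 145309557, plus strand, GRCm38.p6) was at 230.8, 256, 171, 159, 120.5 and 191 CPM in replicates 1 to 6. It was highest in replicate 2 and lowest in replicate 5, with every library above 120 CPM. Its mean was 188 ± 49.3 CPM (SD, n = 6), or 88.9 ± 23.3 CPM per kb of exon, higher than 96.0% of the 14998 genes that passed a filter on low counts. Mrgpre (chromosome 7, 143778363 to 143784500, minus strand) was at 42.6, 43.8, 38.0, 34.6, 27.9 and 39.7 CPM in the same order. It too was highest in replicate 2 and lowest in replicate 5, and its mean was 37.8 ± 5.84 CPM (10.04 ± 1.55 CPM per kb, SD, n = 6). Mrgprf and Mrgpre together took 94.7% of the summed mean CPM of the 10 genes.

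The Mrgpr genes known as markers of skin sensory neurons were low: Mrgprd exceeded 3 counts in 4 libraries and Mrgpra3 in 5, while Mrgprb4 and Mrgprb5 did so in none. Mrgprd, the β-alanine receptor of non-peptidergic nociceptors (chromosome 7, 145314835 to 145324059, plus strand), had 3, 7, 16, 12, 25 and 3 counts in replicates 1 to 6, or 0.131, 0.319, 0.739, 0.598, 1.19 and 0.143 CPM. Only replicate 5 passed 1 CPM, with a 95% Clopper-Pearson interval of 0.773 to 1.76, which covers counting error only, and replicates 1 and 6 lay at the limit. Mrgpra3, the chloroquine receptor of an itch neuron class (chromosome 7, 47588950 to 47601372, minus strand), was at 0.871, 0.137, 1.31, 0.299, 1.53 and 0.335 CPM. It was highest in replicates 5 and 3 and at the limit in replicate 2, where 3 counts gave an interval of 0.0282 to 0.399 CPM. Mrgprb4, a marker of neurons that respond to stroking (chromosome 7, 48198213 to 48199178, minus strand), had 1 count in replicate 1 and 0 in the others. Its close relative Mrgprb5 (chromosome 7, 48168017 to 48168985, minus strand) had 0 counts in all 6 libraries, for which the limit of 3 counts is 0.131 to 0.149 CPM and the upper 95% Clopper-Pearson bound 0.161 to 0.184 CPM. Neither was detectable above that limit at this depth. In bulk RNA, fewer cells of a type and less RNA per cell cannot be told apart.

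Mrgprf and Mrgprd are neighbours on the same strand of chromosome 7, 5277 bases apart, with no gene of the table starting between them. Per kb of exon, the mean of Mrgprf was 532 times that of Mrgprd, an imprecise ratio since Mrgprd had 66 counts in all. The order of the cultures also differed between these neighbours, since replicate 5 was the lowest for Mrgprf and the highest for Mrgprd. For Mrgprd, however, the 95% interval of replicate 5 overlapped those of replicates 3 and 4.

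**Figure D1:**
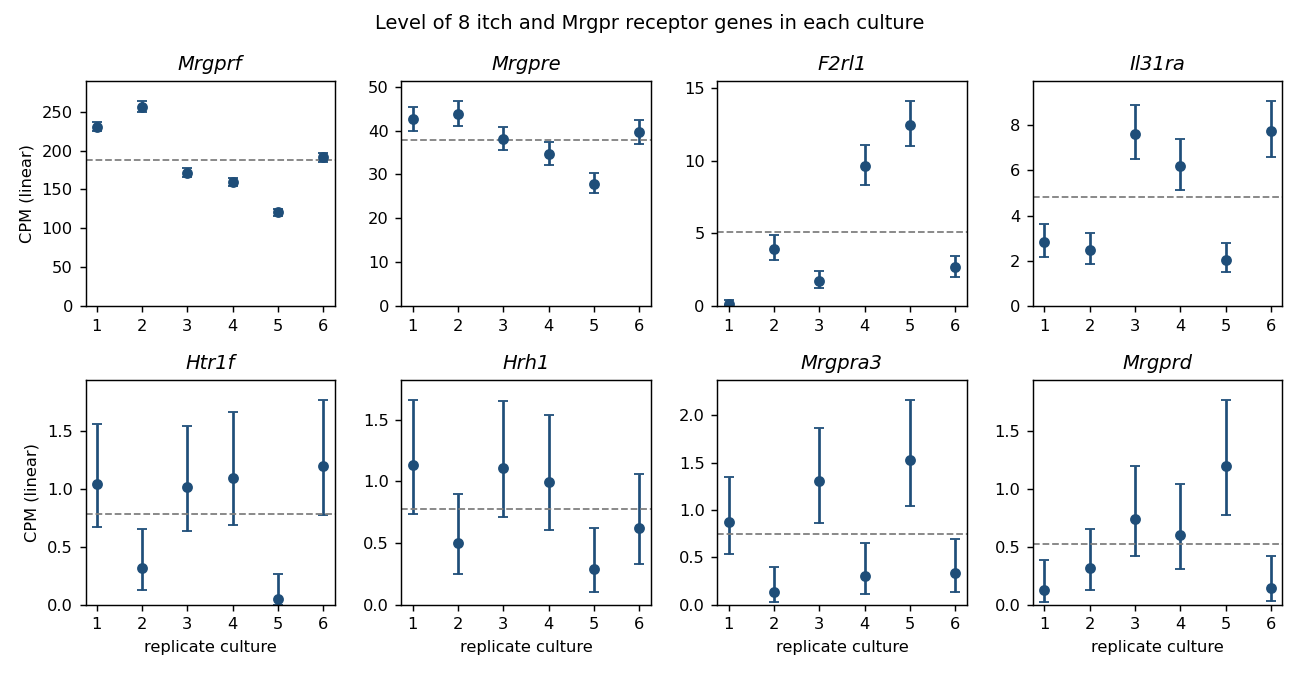
Level of 8 receptor genes in each of the 6 replicate cultures, in CPM on linear axes that differ between panels; points are single libraries, bars are 95% Clopper-Pearson intervals for counting error, and the dashed line is the mean. Mrgprf and Mrgpre were lowest in replicate 5 (120.5 and 27.9 CPM), whereas F2rl1, Mrgpra3 and Mrgprd were highest there.

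The receptors of other families were low, and their cultures ranked differently. F2rl1, the protease-activated receptor 2 (chromosome 13, 95511718 to 95525240, minus strand), was at 0.182, 3.96, 1.75, 9.62, 12.5 and 2.68 CPM in replicates 1 to 6. Replicate 5 was 68.7 times replicate 1, and the 2 highest libraries, 4 and 5, were apart from the other 4; the value of replicate 1 rests on 4.17 counts, with an interval of 0.0475 to 0.446 CPM. The mean was 5.11 ± 4.84 CPM (SD, n = 6). Il31ra, the interleukin-31 receptor subunit (chromosome 13, 112521931 to 112580732, minus strand), was at 2.83, 2.46, 7.62, 6.20, 2.05 and 7.75 CPM. Its libraries fell into a higher set, replicates 3, 4 and 6, and a lower set, replicates 1, 2 and 5, with a mean of 4.82 ± 2.66 CPM (SD, n = 6).

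Htr1f, a serotonin receptor coupled to inhibitory G proteins (chromosome 16, 64924729 to 65105784, minus strand), was at 1.04, 0.319, 1.02, 1.096, 0.0478 and 1.195 CPM. Replicates 1, 3, 4 and 6 lay close together, replicate 2 was lower, and replicate 5 had 1 count. Hrh1, the histamine H1 receptor (chromosome 6, 114397936 to 114483298, plus strand), was at 1.13, 0.501, 1.11, 0.996, 0.287 and 0.622 CPM. It was also lowest in replicate 5, with an interval of 0.105 to 0.624 CPM that overlapped those of replicates 2, 4 and 6. The pan-neuronal score was the mean over its list of log2(CPM per kb + 0.1), here with library sizes scaled by the trimmed mean of M-values (TMM). It was 4.89, 4.26, 5.16, 4.60, 4.06 and 4.80 in replicates 1 to 6, so Htr1f, Hrh1 and this score had the same 2 lowest libraries, 5 and 2.

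Levels between genes were compared per kb of exon. The order by mean log2(CPM per kb + 0.1) was Mrgprf, Mrgpre, F2rl1, Il31ra, Mrgpra3, Htr1f, Hrh1, Mrgprd, Mrgprb4 and Mrgprb5. Mrgprf exceeded Mrgpre by 3.11 ± 0.171 on the log2 scale, and Mrgpre exceeded F2rl1 by 3.04 ± 1.91 (SD, n = 6); both held in 6 of 6 libraries and the ranges did not overlap. F2rl1 and Il31ra differed by 0.29 ± 1.95, with F2rl1 higher in 3 of 6 libraries. Il31ra was above Mrgpra3 by 0.86 ± 1.39 in 4 of 6 libraries and Mrgpra3 above Htr1f by 0.60 ± 1.56 in 3 of 6. Htr1f and Hrh1 differed by 0.48 ± 0.592, Hrh1 and Mrgprd by 0.095 ± 0.955. These 5 differences were smaller than their SD, and the ranges overlapped. Mrgprd was above Mrgprb4 by 1.18 ± 0.843 with overlapping ranges, a difference that was 0.20 with a pseudocount of 1 and 2.27 without length scaling, since Mrgprb4 had 1 count in all, and Mrgprb4 and Mrgprb5 could not be ordered. The median of the 10 members' mean levels was 0.445 CPM per kb, against 7.20 for the genes passing the filter and 0.0177 for all genes.

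The rest of the family was low. Of 20 genes, the 6 Mrgpr members and 14 more including Mas1, 2 were at 1 CPM or more in every library (Mrgprf and Mrgpre), 11 had at most 3 counts in every library, and 7 lay between. The highest of the 14 was Mrgprx1, the receptor for the peptide BAM8-22, at 1.21 ± 0.866 CPM (1.02 ± 0.734 CPM per kb, SD, n = 6), followed by Mrgpra2b at 0.217 ± 0.121 and Mrgpra2a at 0.180 ± 0.108 CPM per kb. Mrgprx1 was at 0.610, 0.137, 1.78, 1.54, 2.46 and 0.717 CPM in replicates 1 to 6. Its highest library was replicate 5 and its lowest replicate 2, as for Mrgpra3. Mrgprx1, Mrgpra2a and Mrgpra2b had fractional counts, and 7.20% of the 50-base windows of Mrgprx1 were shared with 5 other genes, with a longest run of 82 bases, so these levels are uncertain. Mrgprb2, the receptor of mast cells, had 2 counts in 1 library and none in the other 5.

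Of 18 genes of the neuron classes that carry these receptors in the ganglion, 14 were at 1 CPM or more in every library, and the other 4 were Cysltr2, Lpar3, Lpar5 and Sst. Cysltr2, a leukotriene receptor, and the lysophosphatidic acid receptors Lpar3 and Lpar5 averaged 0.267 ± 0.113, 0.245 ± 0.0964 and 0.0451 ± 0.0381 CPM per kb (SD, n = 6), below the mean of Mrgpra3. P2rx3, the ATP-gated channel of non-peptidergic neurons, averaged 18.6 ± 7.28 CPM per kb, Ret, the receptor for GDNF family ligands, 21.7 ± 6.16, and Scn10a, the sodium channel Nav1.8, 10.8 ± 4.59 (SD, n = 6). Other genes of the list were higher, such as Gfra1 (48.3 CPM per kb) and Gfra2 (28.3), or lower, such as Scn11a (5.63), Plxnc1 (3.72) and Trpa1 (2.44). Mrgprd stood at 0.167 ± 0.132 CPM per kb. P2rx3 was highest in replicate 1 (209 CPM) and lowest in replicate 5 (76.8 CPM), the library in which Mrgprd was highest. Genes of this list ranked the cultures differently. Scn10a was lowest in replicate 2 (32.7 CPM) and at 98.6 CPM in replicate 5, whereas Ret was lowest in replicate 5 (105 CPM). Nts and Nppb, neuropeptide genes of an itch neuron class that also carries Il31ra, averaged 33.7 ± 17.2 and 1.88 ± 0.554 CPM per kb, while Sst, which encodes another peptide of that class, had 0 counts in all libraries. Nppb was at 3.13, 1.68, 2.54, 2.19, 1.39 and 2.87 CPM in replicates 1 to 6. Its lowest library, replicate 5, was also that of Il31ra, of Nts (10.1 CPM) and of the pan-neuronal score. Nppb and Nts (72.6 CPM) were highest in replicate 1, which lay in the lower set for Il31ra.

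**Figure D2:**
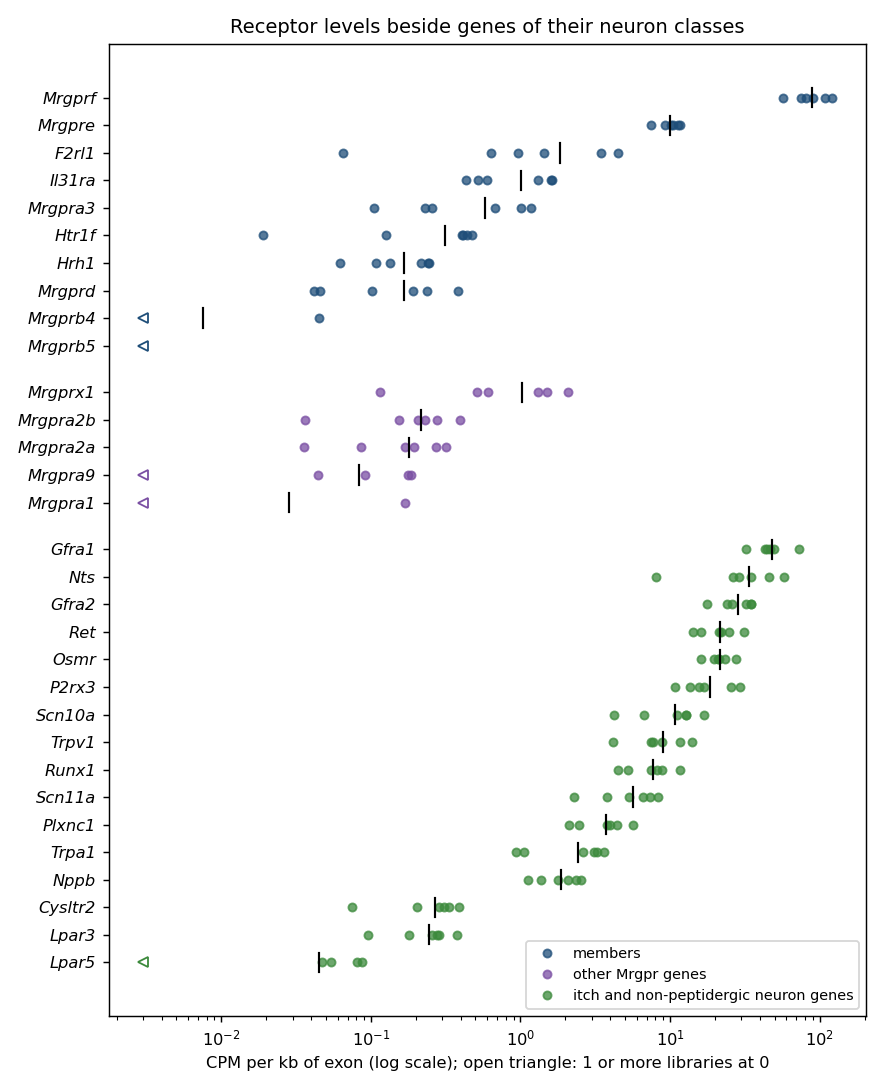
CPM per kb of exon on a log axis for the 10 members, the other Mrgpr genes and a selection of genes of itch and non-peptidergic neurons, the latter groups where they exceeded 3 counts in at least 1 library; points are the 6 libraries, black ticks the means, and an open triangle marks a gene with 1 or more libraries at 0. Mrgprf, at a mean of 88.9 CPM per kb, lay above Gfra1, the highest gene of the neuron list, at 48.3. Which cells of the cultures gave these transcripts was not tested.

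The spread between cultures was then tested against counting noise. For each gene the 6 counts were compared by a chi-square test with those expected from the scaled library sizes, with Benjamini-Hochberg adjustment over 14998 genes, called 76.3% of genes. Only Mrgpre, Mrgprf and Il31ra passed the low-count filter, and all 3 were called (chi-square of 111, 1539 and 155 on 5 degrees of freedom), a share that says little against that background. F2rl1 missed the filter through replicate 1 alone. Without the filter, 8 of the 9 members with any count were called, Mrgprb4 being the exception, against 50.2% of 26854 genes. The biological coefficient of variation that edgeR estimated was 0.172 for Mrgpre against 0.179 for genes of its abundance, 0.245 for Mrgprf against 0.158, and 0.487 for Il31ra against 0.286.

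Cultures differed in the level of other cell types' transcripts, and each member was set against 4 scores computed like the pan-neuronal score. The fibroblast score ran from 3.75 in replicate 1 to 6.81 in replicate 5, and the mural score, of contractile vessel wall cells, from 0.71 to 3.53 in the same libraries. The glial lineage score ran from 6.40 in replicate 5 to 6.98 in replicate 2. Slopes are the log2 change of a gene for each unit of a score, from edgeR's quasi-likelihood fit to 6 libraries, with Benjamini-Hochberg adjustment over 14998 genes. A positive slope passed at an adjusted p under 0.05 for 5.03% of genes with the fibroblast score, 2.51% with the mural score and 0.347% with the pan-neuronal score, and a negative slope for 1.19%, 0.893% and 0% in that order. With the glial lineage score 0% of genes passed in either direction, although 2637 had an unadjusted p under 0.05 and DESeq2 called 787.

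Of the 3 members tested, 0 passed with any of the 4 scores in edgeR, while 2 had an unadjusted p under 0.05 with each of the fibroblast, glial lineage and mural scores and 1 with the pan-neuronal score. Mrgprf had a slope of -0.33 ± 0.0896 (SE) on the fibroblast score (edgeR, adjusted p = 0.0829), -0.35 ± 0.0843 on the mural score (adjusted p = 0.0743) and 1.55 ± 0.495 on the glial lineage score (adjusted p = 0.205). Mrgpre had slopes of -0.21 ± 0.0537 (adjusted p = 0.0668), -0.20 ± 0.0647 (adjusted p = 0.148) and 1.04 ± 0.281 (adjusted p = 0.168) on the same scores. With DESeq2, Mrgprf passed with all 3 of these scores (adjusted p = 0.00485, 0.00261 and 0.0359) and Mrgpre with the fibroblast and glial lineage scores (0.0130 and 0.0456). Il31ra had its largest slope relative to its error on the pan-neuronal score, 1.61 ± 0.614 (edgeR, unadjusted p = 0.0365, adjusted p = 0.368). Replicate 5 lay at an end of all 4 scores, so these slopes cannot be told apart from a difference of that library. Without it, the fibroblast slopes of Mrgprf and Mrgpre were -0.24 and -0.14 (edgeR, adjusted p = 0.557 and 0.536), and their pan-neuronal slopes, 0.14 and 0.23 with all libraries, turned to -0.50 and -0.17 (adjusted p = 0.899 and 0.973).

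F2rl1 had a slope of 1.52 ± 0.252 on the fibroblast score when the low-count filter was dropped (edgeR, adjusted p = 0.0108), where 3.89% of 26854 genes had a called positive slope. Left out in turn, each of the other replicates kept the call, with slopes from 1.19 to 1.66, but without replicate 5 the slope was 1.99 and did not pass (adjusted p = 0.0685). The related thrombin receptor F2r, at 12.3, 27.4, 29.5, 51.6, 81.2 and 27.1 CPM in replicates 1 to 6, passed in the filtered table, at a slope of 0.86 ± 0.0421 (edgeR, adjusted p = 0.000204). F2rl1 and F2r were highest in replicate 5 and lowest in replicate 1. These libraries were at the 2 ends of both the fibroblast and the mural score, so the 2 scores cannot be told apart here. F2rl2, another receptor of this family, was highest in replicate 3 and lowest in replicate 2. Its slope on the fibroblast score, 0.17 ± 0.176, did not pass (edgeR, adjusted p = 0.603). From replicate 1 to replicate 5 the summed level of 8 macrophage genes went from 15.6 to 163 CPM and that of 7 endothelial genes from 10.5 to 136 CPM. Of these, 5 and 3 genes were at 1 CPM or more in every library, and their part in the result was not tested.

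**Figure D3:**
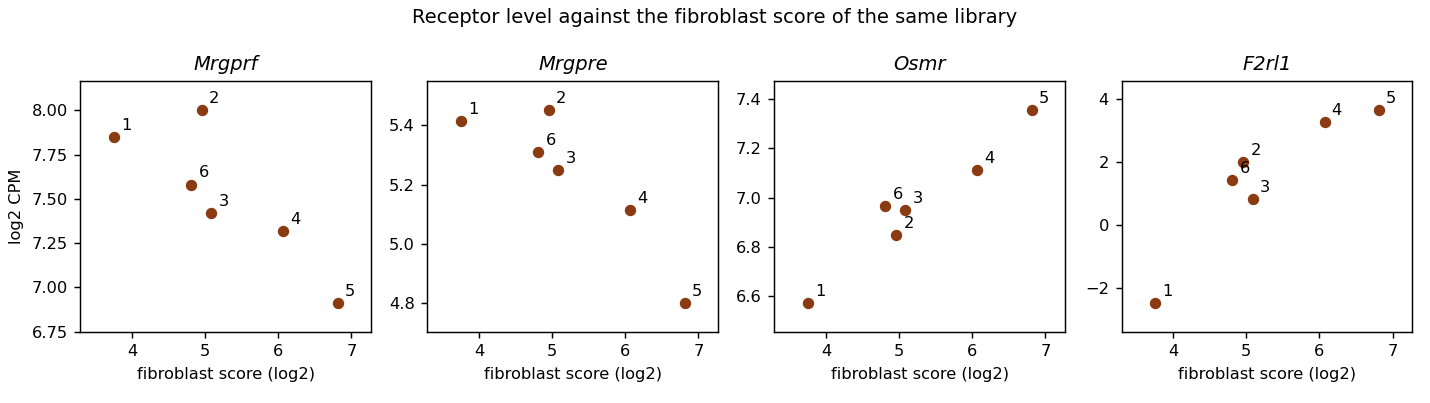
Log2 CPM of Mrgprf, Mrgpre, Osmr and F2rl1 against the fibroblast score (log2) of the same library, each point being 1 of the 6 cultures and labelled with its replicate number; vertical axes differ. Replicate 5, with the highest fibroblast score (6.81), had the lowest Mrgprf and Mrgpre and the highest Osmr and F2rl1.

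The rest of the itch pathway was followed through 92 genes in 7 lists. Of these, 44 were at 1 CPM or more in every library, 21 had at most 3 counts in every library, and 47 passed the low-count filter. With the fibroblast score 8 of the 47 had a called positive slope and 0 a called negative one, beside 5.03% and 1.19% of all genes tested. The median slope was 0.14, against -0.0048 for all genes tested. They included F2r, Osmr, Il13ra1, Il1rl1, Ednra, Il33 and Runx1, named after their values were seen. With the mural score 4 had a called positive slope, Htr1b, Ctss, Edn1 and Runx1, and 1 a called negative slope, Ednrb, beside 2.51% and 0.893% of all genes. With the pan-neuronal and glial lineage scores edgeR called 0 of the 47, although 9 and 15 had an unadjusted p under 0.05, and DESeq2 called 2 and 6. The fibroblast count rested in part on the extreme libraries, being 2 without replicate 5 and 5 without replicate 1, and the mural count of positive slopes was 0 without replicate 1, 1 without replicate 2 or 5, and 2 without replicate 3 or 4.

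Among the cytokine receptors, the partner of Il31ra was more abundant than Il31ra itself. Osmr, the oncostatin M receptor that pairs with the Il31ra protein, was at 95.3, 115, 123, 138, 164 and 125 CPM in replicates 1 to 6, a mean of 21.5 ± 3.89 CPM per kb, against 1.02 ± 0.562 for Il31ra (SD, n = 6). Osmr rose with the fibroblast score, at a slope of 0.23 ± 0.0343 (edgeR, adjusted p = 0.0110). It was highest in replicate 5, where Il31ra was lowest. Il1rap, the shared subunit of interleukin-1 family receptors, and Il4ra, the interleukin-4 receptor, stood at 37.1 ± 8.92 and 33.1 ± 6.85 CPM per kb. Il31, Il4 and Il13, the ligands of Il31ra and of Il4ra, had 0 counts in every library.

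Among amine and protease receptors, the highest per kb after F2r (11.4 ± 7.36 CPM per kb) were F2rl2, a cofactor of other protease-activated receptors, at 4.99 ± 1.69 and the serotonin receptor Htr2a at 2.83 ± 0.901. Of the 14 genes, 3 never exceeded 3 counts, Hrh4, Htr7 and Htr2c. Of the lipid and peptide receptors, S1pr3, a sphingosine-1-phosphate receptor used by itch and pain neurons, led at 109 ± 31.1 CPM per kb, followed by the endothelin receptors Ednrb at 22.7 ± 5.99 and Ednra at 5.67 ± 6.93. S1pr3 was highest in replicate 2 (622 CPM) and lowest in replicate 5 (231 CPM), as the glial lineage score was. Which cells gave its transcripts was not tested. Of the signal transducers, Stat3 was at 101.8 ± 5.83, Jak1 at 78.1 ± 9.54 and the G protein subunit Gna11 at 31.5 ± 0.835 CPM per kb. Plcb3, the phospholipase C of itch signalling, was at 27.3 ± 1.40 CPM per kb, and 15 of the 16 transducers were at 1 CPM or more in every library.

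Of the ligands and mediators, the protease gene Ctss (23.1 ± 17.4 CPM per kb), the substance P precursor Tac1 (14.95 ± 6.39) and the alarmin Il33 (10.9 ± 10.4) were highest. Il33 rose with the fibroblast score, at a slope of 1.26 ± 0.120 (edgeR, adjusted p = 0.00166). Of the transcription factors, Cbfb, Klf7 and Runx1 led at 62.2 ± 5.34, 20.9 ± 3.01 and 7.66 ± 2.60 CPM per kb. Runx1, known to be required for Mrgpr expression in non-peptidergic neurons, was at 33.3, 38.4, 60.6, 65.7, 86.0 and 54.9 CPM in replicates 1 to 6. It was highest in replicate 5, as Mrgprd and Mrgpra3 were. In replicate 1, where Runx1 was lowest, Mrgprd had its lowest level, 0.131 CPM, but Mrgpra3 was at 0.871 CPM. A relation of Runx1 to these genes was not tested. Runx1 rose with the fibroblast score at a slope of 0.41 ± 0.0762 (edgeR, adjusted p = 0.0241).

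For the 4 most abundant members, the genes of most similar pattern were sought among 11944 genes by Pearson's r of log2 values over the 6 libraries, as a description only. Nearest to Mrgprf were Grina, Cic and Elf2, with r from 0.994 to 0.995. Nearest to Mrgpre were Tax1bp3, Gnptab and Hacl1, each at 0.997. Nearest to F2rl1 were Gm5566, Sema7a and Maged2 at 0.992 to 0.993, and nearest to Il31ra were Lgi1, Mettl22 and Zcchc18 at 0.989 to 0.996. These points share their libraries, and no p is given.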

How the data were processed

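Estimated counts per gene, deposited by the authors as raw, were used with the combined exon length of the same table. The submitters' processing notes name cutadapt 2.5, STAR 2.7.2b, featureCounts 1.6.4 (Subread) and GRCm38.p6, without settings. Of the deposited values, 13.4% to 14.7% per library were fractional; they were used as deposited for CPM and rounded for the tests, in R 4.3.3 with the packages edgeR, version 4.0.16, and DESeq2, version 1.42.0. Libraries were made from 500 ng of RNA with RIN of at least 8.7 and 15 PCR cycles, per the labels' protocols. No batch is given in the labels.

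Genes were filtered with filterByExpr and scaled by the trimmed mean of M-values (TMM). Scores used a pseudocount of 0.1. The tests were run on simulated data of 14998 genes, 200 of them changed. With counting noise only, the chi-square test recovered 190 genes changed 2-fold in 1 library, with 7 other calls. The slope test recovered 183 genes with a slope of 2, up or down, on the pan-neuronal score, with 8 other calls. Smaller slopes, the other scores and spread beyond that of genes of the same abundance were not simulated. Recovery at the slopes of the members is therefore not known. Members and lists were chosen with earlier results of these data known. The rule for named genes took the members, the 3 highest per kb of each pathway list, and the 3 most similar to each of the 4 most abundant members; other genes named, including those of the neuron list, were chosen after their values were seen. Sequences come from GENCODE M21 transcripts (GRCm38). The counts of the pathway and neuron lists include 1 gene that is not reported here.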

Additional observations from a re-analysis of the deposited data

How the results depend on the processing

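Alternatives were other library scaling, no low-count filter, DESeq2, other pseudocounts, no length scaling and leaving out each replicate; dropping the filter together with a replicate, and all alternatives for the pathway genes, were chosen after seeing the data. Without length scaling 6 of 10 members kept their place in the order, and 8 of 10 did without replicate 1, 5 or 6. Without the filter, 8 members instead of 3 varied beyond counting noise. Genes related to the pan-neuronal score numbered 52, but 430 with DESeq2, 21 without the filter and 0 to 0 when any replicate was left out. For the fibroblast score there were 933 genes, 1719 with DESeq2, and 88 (without replicate 5) to 835 when a replicate was left out. For the glial lineage score there were 0 genes, 787 with DESeq2, 4 without the filter and 0 to 1213 with a replicate left out, the latter without replicate 1. For the mural score there were 511 genes, 1401 with DESeq2, 857 without the filter and 6 (without replicate 1) to 798 with a replicate left out. The cause was not tested. Mrgprf also passed with the fibroblast score without replicate 2 (adjusted p = 0.0186) and with the mural score without replicate 6 (0.0475), and Mrgprf and Mrgpre with the glial lineage score without replicate 1 (0.0390 and 0.0235). Pathway genes rising with the fibroblast score numbered 8, 13 with DESeq2 and 2 (without replicate 5) to 10 with a replicate left out. Of the values for single genes and gene pairs under an alternative, 188 stayed the same, 9 became stronger, 1 weaker and 9 moved. Slopes counted as the same by direction and call, and gene pairs by a shift under 1 SD. A pair could thus change order and count as the same, as F2rl1 and Il31ra did without length scaling (0.29 to -0.52). Of the counts of genes and of places in the order, 41 stayed the same and 27 moved. No paired analysis was possible because all samples belong to a single group. Depth limits the 6 members with a mean under 1 CPM, where few counts decide the order of the cultures.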
